A study of Rattus norvegicus with 16 samples.

Results

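Calreticulin (Calr) and 9 further chaperone genes were followed in adult rat liver: Canx, Hspa5, Hsp90b1, Pdia3 and Pdia4 of the endoplasmic reticulum (ER), Hsp90ab1, Hsp90aa1 and Hspa8 of the cytosol, and Hspd1 of mitochondria. The genes were chosen by earlier results of these same arrays, in particular by how the liver and the reference signal changed between slides, so those changes are given as a description, with no test. They are 10 of the 15168 genes named on the array. All their probes were taken, 16 of the 30367 probes on the array and 16 of the 12140 probes tested, and none was lost to the filter on dim signal. Hsp90ab1 had 2 probes, Hsp90aa1 had 3, Hspa8 had 4 and each other gene had 1, and letters A to D order the probes of 1 gene by falling liver signal.

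Liver RNA came from male Sprague-Dawley rats 78 to 86 days old, on 16 Agilent 2-colour arrays in 4 groups of 4. In MM, dams were dosed daily with 1 mg/kg of the mixture M, made up of methylmercury, polychlorinated biphenyls and organochlorine pesticides, and litters were cross-fostered. In M, dams received the same dose and litters stayed with their mothers. In CC, dams received corn oil and litters were cross-fostered, and in C, dams received corn oil and litters stayed with their mothers. Dosing ran from the start of gestation to postnatal day 20. The description of the M arrays calls them a control, against their title and treatment labels, and here M counts as exposed. There were 8 pups a group, and RNA of 2 rats was pooled for each array. Liver RNA carried the red dye on every array, and a universal reference RNA of 14 rat cell lines carried the green dye, with no dye swap. In liver, and in its log ratio to the reference, p-values measure the spread between arrays of such pools. In the reference they measure the spread between hybridisations of 1 RNA.

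MM and M lay on 1 slide and CC and C on the other, so exposure and slide cannot be told apart. Each slide holds its arrays in 2 rows, and each group had 2 arrays in each row. All 12 hepatocyte markers looked at, albumin among them, were well above background in liver on all 16 arrays. The share of probes detected above background ran from 35.0% to 41.9% over the arrays in liver and from 61.6% to 66.1% in the reference. The 16 probes of the chaperone genes were well above background on all 16 arrays in both channels, and none was saturated. Of these probes, Canx was the dimmest in both channels. Its liver signal before correction was 114.5 to 149, on a background of 68.5 to 75.5, and its reference signal was 110.5 to 233.25. An offset of 50 was added in the background correction, so the log2 values of Canx depend on it more than those of brighter probes. The number of arrays limits the precision. In bulk liver, fewer cells of a type and less RNA per cell cannot be told apart.

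Calr and its membrane-bound relative Canx (calnexin) are lectin chaperones that hold newly made glycoproteins in the ER until they are folded, working with the disulfide isomerase Pdia3. Hspa5 (BiP) and Hsp90b1 (GRP94) are the ER members of the HSP70 and HSP90 families, and Pdia4 is another ER disulfide isomerase. Unfolded protein in the ER induces these genes through the ER stress response element, a promoter site read by ATF6 and XBP1 together with NF-Y. Cytosolic chaperones are induced through heat shock elements, which bind HSF1. Hepatocytes secrete most plasma proteins and carry a heavy load of ER folding.

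Promoter sequences of 8 of the 10 genes were matched in RefSeq (build GRCr8), each covering 250 bases before to 50 bases after the annotated start. The ER stress response element, searched on both strands as CCAAT, 9 bases of any kind and CCACG, was found in the promoters of Calr, Canx, Hsp90b1 and Hspa5, and in 22 of all 33469 promoters (0.0657%). The element contains the CCAAT box, which 37.5% of all promoters hold. These sites are shown because 4 of the ER genes hold them. The signals of these 4 genes differed, as given below. The element is in capitals, with up to 20 bases on each side, on the strand on which it reads in this direction. It begins 43 bases before the start in Hspa5 and 230 in Canx. In Calr it lies on the strand opposite to the gene and reaches 232 bases before the start. Hsp90b1 holds 2 sites, 1 at 176 bases on the gene's strand and 1 reaching 72 bases on the opposite strand.
Hspa5, chr3:38452953-38453011, plus strand: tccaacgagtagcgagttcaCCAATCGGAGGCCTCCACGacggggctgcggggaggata
Hsp90b1, chr7:23012431-23012489, minus strand: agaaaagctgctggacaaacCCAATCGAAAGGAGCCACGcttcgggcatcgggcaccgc
Hsp90b1, chr7:23012327-23012385, plus strand: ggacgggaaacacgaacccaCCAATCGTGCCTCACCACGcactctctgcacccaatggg
Calr, chr19:40213117-40213173, minus strand: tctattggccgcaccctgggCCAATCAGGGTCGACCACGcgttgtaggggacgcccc
Canx, chr10:35158049-35158107, minus strand: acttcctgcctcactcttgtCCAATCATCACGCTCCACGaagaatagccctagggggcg

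A heat shock element of 3 units, searched on both strands as GAANNTTCNNGAA or TTCNNGAANNTTC, was found in the promoters of Hspa8 and Hspd1 and in 267 of all 33469 promoters (0.798%). Neither the 4 genes above nor Hsp90ab1 or Pdia4 held a match in this window. The element is in capitals below.
Hspa8, chr8:50080439-50080491, plus strand: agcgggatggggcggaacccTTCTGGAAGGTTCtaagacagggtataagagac
Hspa8, chr8:50080281-50080333, plus strand: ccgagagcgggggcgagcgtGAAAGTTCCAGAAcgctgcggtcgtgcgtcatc
Hspd1, element at 237 bases before the start, chr9:64084242-64084287, minus strand: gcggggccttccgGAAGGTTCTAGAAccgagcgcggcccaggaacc
Hspd1, overlapping element at 242 bases, chr9:64084247-64084287, minus strand: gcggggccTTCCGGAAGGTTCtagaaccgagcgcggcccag

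Levels below are log2 intensities of 1 channel after background correction and quantile normalization, and levels of different probes are not set against each other. The largest slide difference of the 16 probes in a single channel lay in the reference signal of Calr (probe A_44_P300506). Its reference level was 13.04, 13.09, 13.06 and 13.11 in MM and 13.06, 13.09, 13.01 and 13.12 in M, against 11.11, 11.11, 11.07 and 11.09 in CC and 11.11, 11.16, 11.05 and 11.09 in C. All 8 arrays of the slide with MM and M stood above all 8 of the slide with CC and C. The difference was 1.98 log2 units for MM minus CC and 1.97 for M minus C, although the labels name 1 reference RNA for all arrays. Of 12140 probes, 1 had a larger reference difference for MM minus CC and 0 for M minus C, a rank that the choice of genes favoured.

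The liver level of Calr ran the other way and by less. It was 12.04, 12.15, 11.25 and 11.32 in MM and 11.74, 12.22, 11.25 and 10.74 in M, against 12.67, 12.39, 11.76 and 11.68 in CC and 12.68, 12.42, 11.58 and 12.07 in C. The groups overlapped. The liver difference was -0.43 for MM minus CC and -0.70 for M minus C, and the log ratio, liver over reference, differed by -2.53 and -2.75. Most of the log ratio difference of Calr therefore lay in the reference channel. With the scanner's processed signals, an alternative added after seeing the data, the liver difference was -0.15 for MM minus CC and -0.58 for M minus C, and the reference difference was 2.06 for both.

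Canx had reference levels of 7.92 to 7.98 in MM and 7.94 to 8.03 in M, against 7.07 to 7.17 in CC and 7.06 to 7.21 in C. The 2 slides did not overlap, and the difference was 0.83 for both MM minus CC and M minus C. Its liver level averaged 7.08 ± 0.24 in MM and 6.93 ± 0.13 in M, against 6.91 ± 0.09 in CC and 6.96 ± 0.11 in C (SD, n = 4 each), a difference of 0.17 for MM minus CC and -0.03 for M minus C. One array, MM replicate 3, carried much of the first value, and the difference was 0.05 without it. With the processed signals the reference differences of Canx were 1.14 and 1.11, so their size depends on the processing of this dim probe.

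Hspa5, the ER's HSP70, differed little in the reference, by 0.10 for MM minus CC and 0.11 for M minus C. Its liver level averaged 13.52 ± 0.28 in MM and 13.45 ± 0.12 in M, against 13.23 ± 0.13 in CC and 13.30 ± 0.20 in C (SD, n = 4 each). Over ways of processing the signals, the liver difference of Hspa5 ran from -0.05 to 0.15 for M minus C. For MM minus CC it ran from 0.16 to 0.28. Hsp90b1 differed in the reference by 0.19 and 0.16, and in liver by 0.05 and -0.23. The 4 genes with an ER stress response element had reference differences for M minus C of 1.97 (Calr), 0.83 (Canx), 0.16 (Hsp90b1) and 0.11 (Hspa5). These are differences between hybridisations of what the labels name as 1 RNA, and a part of the element in them was not tested. The Canx value comes from a dim probe and was 1.11 with the processed signals. The disulfide isomerases Pdia3 and Pdia4 differed in the reference by 0.31 and 0.29 for MM minus CC, and by 0.28 and 0.26 for M minus C.

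**Figure D1:**
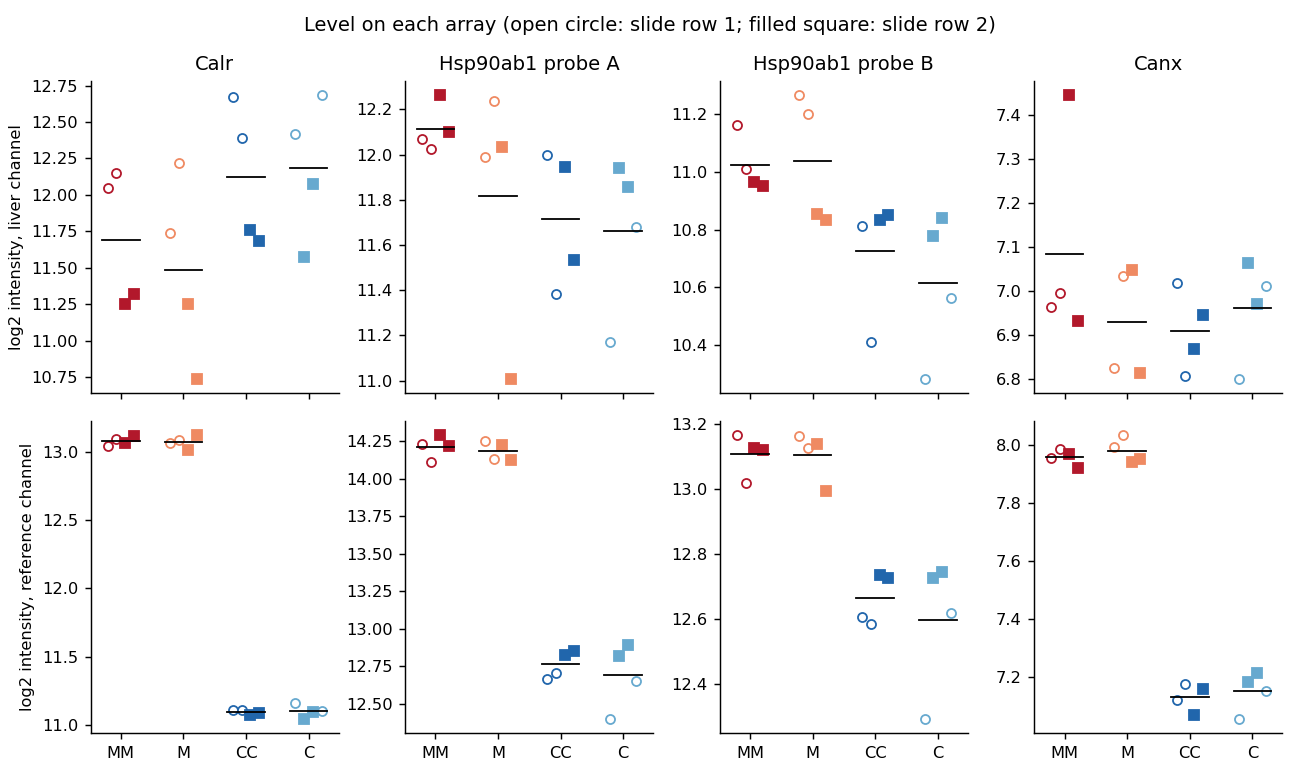
Log2 intensity of Calr, both Hsp90ab1 probes and Canx on each of the 16 arrays, liver channel above and reference channel below, by group. Open circles are arrays of slide row 1, filled squares arrays of slide row 2, and black lines group means; each panel has its own scale. The reference levels split by slide, Calr at 13.01 to 13.12 in MM and M and 11.05 to 11.16 in CC and C, whereas the liver levels of Calr overlap.

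The constitutive cytosolic HSP90, Hsp90ab1, showed that the reference difference can depend on the probe. Probe A (A_64_P045716) had reference levels of 14.23, 14.11, 14.29 and 14.22 in MM and 14.25, 14.13, 14.22 and 14.12 in M, against 12.67, 12.70, 12.83 and 12.85 in CC and 12.65, 12.40, 12.82 and 12.89 in C. Its difference was 1.45 for MM minus CC and 1.49 for M minus C. Probe B (A_64_P140020) differed by 0.44 and 0.51 in the same channel. In liver, probe A differed by 0.40 and 0.15 and probe B by 0.30 and 0.42, so the probes lay closer together there.

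The 3 probes of Hsp90aa1, the heat-inducible HSP90, also differed from each other. Their reference differences for MM minus CC were 0.32 for probe A, 0.74 for probe B and 0.02 for probe C, and for M minus C 0.36, 0.67 and 0.05. The constitutive HSP70 of the cytosol, Hspa8, had small reference differences in both directions, from -0.25 (probe C) to 0.08 (probe D) for MM minus CC and from -0.17 (probe C) to 0.13 (probe D) for M minus C. The mitochondrial chaperonin Hspd1 differed in the reference by 0.07 and 0.05.

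**Figure D2:**
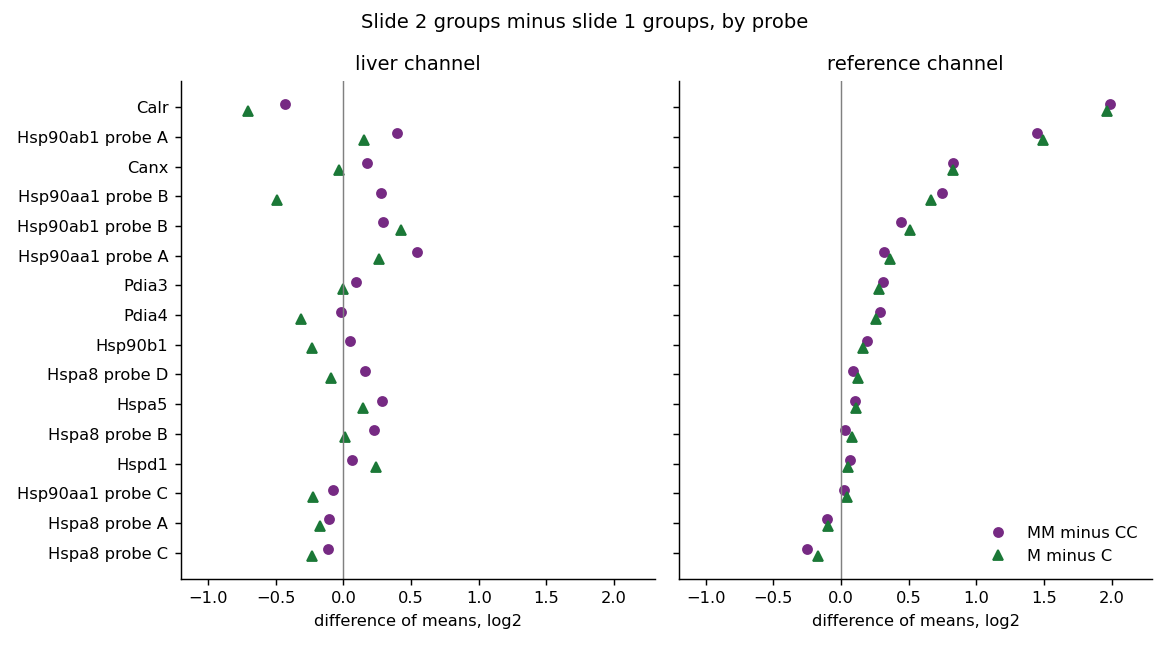
Difference of group means in log2 units for each of the 16 probes, MM minus CC (circles) and M minus C (triangles), in the liver channel (left) and the reference channel (right). In the reference both comparisons fall almost on each other, from 1.98 and 1.97 for Calr to -0.25 and -0.17 for Hspa8 probe C; in liver they spread around 0.

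Over the 16 probes, the reference difference was above 0 for 14 in both comparisons, with medians of 0.24 for MM minus CC and 0.21 for M minus C. Over all 12140 probes, 49.0% and 47.3% were above 0, with medians of 0.00 and -0.01. The genes were chosen by such changes, so these counts describe the choice and are no evidence about the set. The liver difference was above 0 for 11 of 16 probes for MM minus CC (median 0.13) and for 6 of 16 for M minus C (median -0.06). Over all probes the shares in liver were 49.2% and 46.3%. Part of these values moved with the place of a spot on the array. The neighbouring spots within 10 grid rows and columns of a chaperone spot, 143 to 205 of them, had median slide differences of -0.10 to 0.23 in liver and -0.08 to 0.24 in the reference. Around the Calr spots the neighbours' medians in the reference were -0.08 and -0.05, against 1.99 and 1.96 for the Calr spots themselves. Around the Hsp90ab1 probe A spots they were 0.23 and 0.18, against 1.51 and 1.43. Around the probe B spot of that gene the reference median was 0.24, against 0.48. In liver the probe A spots differed by 0.31 and 0.25 (neighbours 0.22 and 0.16) and the probe B spot by 0.36 (neighbours 0.23). Not all probes stood clear of their neighbours. In the reference the Hspa5 spots differed by 0.07 and 0.14, with neighbours at 0.07 and 0.14. The Hspd1 spots differed there by 0.07 and 0.05 (neighbours 0.11 and 0.08), and the Hspa8 probe B spot by 0.06 (neighbours 0.11). In liver the Hspa5 spots differed by 0.14 and 0.29, with neighbours at 0.06 and 0.15.

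The fostering comparisons, CC against C and MM against M, lie within slides and were not used to choose the genes. None of the 16 probes passed the test for fostering in the log ratio, the liver channel or the reference channel. By limma with Benjamini-Hochberg adjustment, 0 of 12140 probes (0%) passed an adjusted p of 0.05 for CC minus C, for MM minus M, or for their difference (the interaction, tested in liver and log ratio). At an unadjusted p under 0.05, 87 probes passed in liver for CC minus C, 164 for MM minus M and 185 for the interaction. Each is a smaller share of the 12140 probes than the 0.05 that this threshold passes when no probe differs. These fits held no term for slide row, so differences between rows enter the spread and lower such counts. The counts therefore cannot tell whether low p-values are in excess. A missing call does not show equal levels, and the 95% intervals give what remains possible. Without a row term, the intervals also take in differences between slide rows.

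For Calr the liver difference was 0.21 ± 0.33 for MM minus M (SE, 95% interval -0.50 to 0.91), which was -0.04 without M replicate 8, and -0.06 ± 0.33 for CC minus C (-0.77 to 0.65). Hspa5 was held more tightly, at 0.07 ± 0.13 for MM minus M (-0.21 to 0.35) and -0.07 ± 0.13 for CC minus C (-0.35 to 0.21). Across the 16 probes, 14 lay above 0 for MM minus M (median 0.12) and 13 lay below 0 for CC minus C (median -0.06), against medians of 0.00 over all probes in both. Of all probes, 51.3% lay above 0 for MM minus M and 49.0% for CC minus C. The 16 probes share arrays and genes, so the counts are no test.

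The largest liver difference was at Hsp90aa1 probe B. Its liver level was 11.27, 11.27, 11.40 and 10.79 in MM against 11.10, 11.22, 10.53 and 10.22 in M, and 11.78, 10.44, 11.21 and 10.19 in CC against 11.22, 10.96, 11.65 and 11.19 in C. CC replicates 2 and 4 stood lowest of the control arrays, and the groups overlapped in both pairs. The difference was 0.41 ± 0.31 for MM minus M and -0.35 ± 0.31 for CC minus C, and the interaction was 0.77 ± 0.43 (95% interval -0.15 to 1.69, adjusted p = 1.00 by limma).

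**Figure D3:**
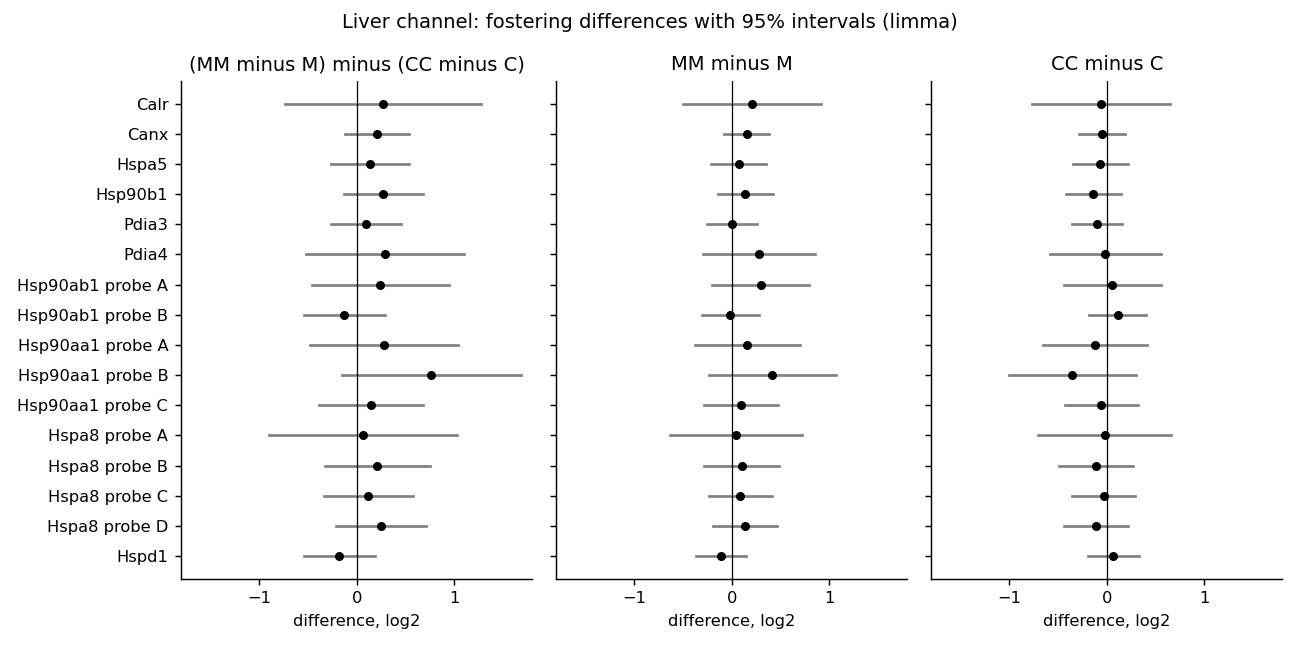
Fostering differences in the liver channel for each of the 16 probes in log2 units, with limma's 95% intervals: the interaction (left), MM minus M (middle) and CC minus C (right). Every interval includes 0; the widest are those of Calr, Hspa8 probe A and Hsp90aa1 probe B.

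The other genes of these pathways gave the same count. Of genes with a tested probe, 42 of 59 listed ER folding genes, 37 of 47 unfolded protein response genes, 49 of 61 cytosolic heat shock genes and 17 of 18 mitochondrial chaperone genes, 0 passed the test in either fostering comparison or the interaction. Examples in liver are Hyou1, an ER HSP70-like chaperone, with 0.27 for MM minus M and -0.28 for CC minus C; Herpud1, a factor of ER-associated degradation, with -0.15 and 0.26; Xbp1, a transcription factor of the unfolded protein response, with 0.03 and 0.22; and Hspa9, the mitochondrial HSP70, with 0.18 and -0.28. Hsf1, the heat shock factor, stood at -0.03 and -0.05. Markers of other cells were tested in part of their lists: 12 of 12 for hepatocytes, 6 of 10 for sinusoidal endothelium, 11 of 11 for Kupffer cells, 9 of 10 for stellate cells, 6 of 8 for erythroid cells, 1 of 7 for B and plasma cells, 2 of 6 for T cells and 4 of 5 for bile duct cells. They gave 0 calls in liver as well, but in some lists most markers lay on 1 side of 0. Of the 6 erythroid markers, 5 lay above 0 for MM minus M (median 0.39) and 5 lay below 0 for CC minus C (median -0.22). Their mean liver level was 10.55 to 11.74 in MM and 10.44 to 10.93 in M, and 10.54 to 11.22 in CC and 10.97 to 11.25 in C (log2, lowest and highest of 4 arrays). All 6 endothelial markers lay above 0 for CC minus C (median 0.17), as did 10 of 11 Kupffer markers (median 0.08). Over all probes, 49.0% lay above 0 for CC minus C and 51.3% for MM minus M. The endothelial mean was 8.15 to 8.24 in CC and 7.97 to 8.13 in C, and 8.02 to 8.28 in MM and 8.09 to 8.28 in M. The Kupffer mean in CC, 8.37 to 8.72, lay within that in C, 8.29 to 8.82, and it was 8.19 to 8.91 in MM and 8.54 to 8.76 in M. The part of these cells in the chaperone values was not tested.

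The slide row, which is a position on the slide and no treatment, was crossed with the 4 groups and could be tested. The liver signal of Calr was lower in row 2, 11.46 ± 0.41 against 12.29 ± 0.32 in row 1 (SD, n = 8 each), a difference of -0.83 ± 0.10 (SE, adjusted p = 2.18e-05, limma). The rows did not overlap within either slide. On the slide with MM and M, the means were 11.14 in row 2 and 12.04 in row 1, and on the slide with CC and C 11.77 in row 2 and 12.54 in row 1. The reference level of Calr did not pass the test, at -0.02 ± 0.02 (SE, adjusted p = 0.581, limma).

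Calr was not alone in this. Among all 12140 probes, 5515 (45.4%) differed between rows in liver, 5160 (42.5%) in the log ratio and 154 (1.27%) in the reference. Of the 16 chaperone probes, 5 passed in liver, 3 in the log ratio and 0 in the reference. In liver, Hspa8 probe A (-0.60 ± 0.16, adjusted p = 0.00768), Pdia4 (-0.42 ± 0.16, adjusted p = 0.0376) and Hspd1 (-0.19 ± 0.07, adjusted p = 0.0349) were lower in row 2 with Calr, and Hspa5 was higher (0.21 ± 0.08, adjusted p = 0.0355; SE, limma). Hspa8 probe B, a probe of the same gene as probe A, stood at 0.25 ± 0.11 (adjusted p = 0.0746). In the log ratio the called probes were Calr (-0.77), Hspa8 probe A (-0.45) and Hspd1 (-0.22).

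The row difference followed the place of the spot on the array, a grid of 384 rows and 164 columns. Over all tested spots the median liver difference, row 2 minus row 1, was 0.50 in the band of grid rows 1 to 48 and -0.48 in the band of rows 337 to 384. Both Calr spots lie near that edge, at grid rows 371 and 374, and differed by -0.79 and -0.87, where their neighbours' medians were -0.52 and -0.51. Hsp90aa1 probe C has 1 spot at row 35, which differed by 0.36 (neighbours 0.46), and 1 at row 374, which differed by -0.70 (neighbours -0.53), so that copies of 1 sequence went opposite ways. The Hspa8 probe A spot at row 349 differed by -0.60 (neighbours -0.48) and the probe B spot at row 122 by 0.25 (neighbours 0.16).

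With the scanner software's processed signals, 12 probes of 12140 were called between rows in liver, none of them a chaperone probe. Calr then differed by -0.13, Pdia4 by 0.00, Hspd1 by -0.07 and Hspa5 by 0.13, and Hspa8 probe A turned to 0.21. With the scanner's own log ratio 0 probes were called between rows, 1073 had an unadjusted p under 0.05, and Calr differed by -0.16. The row calls above therefore do not hold under that processing.

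**Figure D4:**
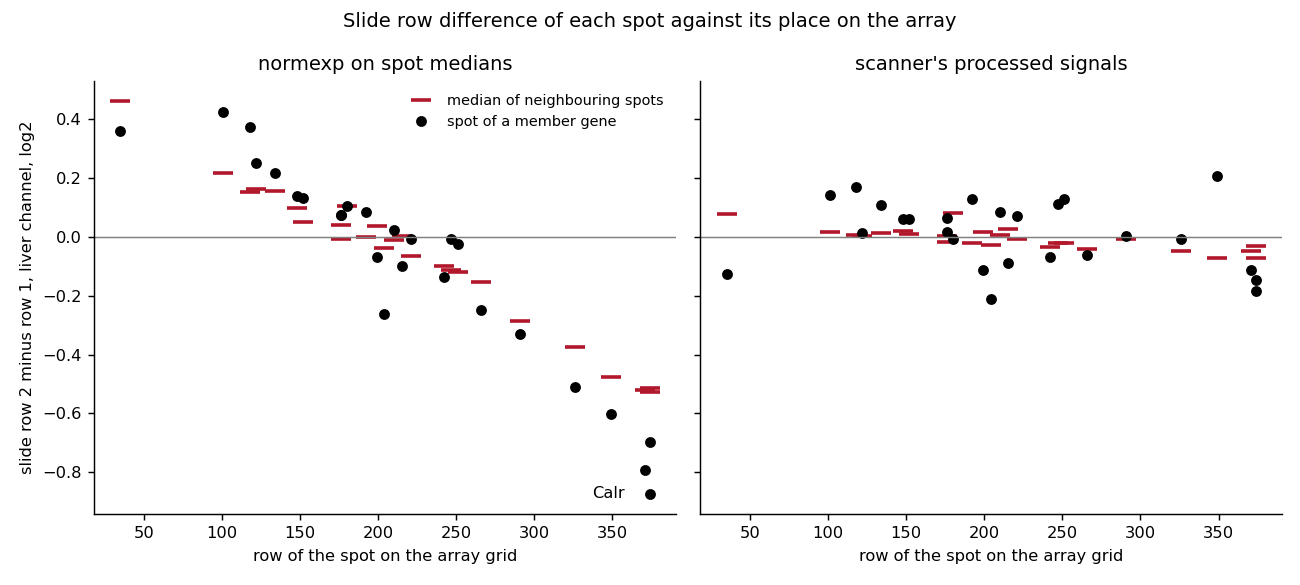
Row 2 minus row 1 difference of the liver channel in log2 units for every spot of the 10 genes (black points) against the grid row of the spot, with the median of its neighbours (red dashes), for background-corrected spot medians (left) and the scanner software's processed signals (right). On the left both follow 1 slope, to -0.87 at a Calr spot; on the right the neighbours' medians stay between -0.07 and 0.08.

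Genes with a liver pattern most like Calr, after centring on each slide, were Ppfia1 (Pearson r = 0.95 over 16 arrays), Ddrgk1 (0.94), Cdkn1a (0.94), Reep3 (0.93) and Rassf3 (0.93), out of 7377 genes compared. Their spots lie at grid rows 255 to 383, and each has a spot at row 340 or beyond, near those of Calr. Among the chaperone probes, Hspa8 probe A (0.69), Hspd1 (0.59) and Pdia4 (0.56) were most like Calr, and Hspa5 was at -0.53 and Pdia3 at -0.50. The other probes of Hspa8 did not follow probe A: probe B was at -0.41, probe C at 0.02 and probe D at -0.16. For Hsp90ab1 the liver pattern was closest to Mapk3 (0.87), Itgbl1 (0.83), Eif3j (0.82), Elovl5 (0.81) and Tcf12 (0.81).

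In the reference channel without centring, where the slides split, Calr was closest to Acin1, H1f5, Tcf12, Hadha and Ppfia1 (each r = 1.00) and Hsp90ab1 to H1f4 (1.00), Eif3j (1.00), Apaf1 (0.99), Oxsr1 (0.99) and Drap1 (0.99). The points of these correlations share arrays, slides and grid position, and no p is given.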

How the data were processed

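Liver and reference RNA were measured on 16 Agilent arrays (design 028279). Per the file headers, Feature Extraction 11.0.1.1 wrote the deposited median spot and background intensity of both channels, processed intensity signals, and a log10 ratio. The authors' deposited table holds log2 values, as worked out from slopes of 0.979 to 0.994 against loess-normalized log2 ratios of the spot medians. The correlations were 0.989 to 0.995. The centring of that table stays unknown. Medians were corrected with normexp (offset 50), normalized by loess within arrays (log ratio) or by quantile within a channel, and averaged over a probe's spots after leaving out 732 to 1138 outlier spots per array, in limma 3.58.1 under R 4.3.3. Scanner files hold medians, not the means planned. Names came from matching accessions to RefSeq (GRCr8): 18005 of 30367 probes. The filter asked for a liver signal flagged well above background on 3 or more of the 4 arrays of some group, and called at an adjusted p under 0.05. Fits used all 16 arrays with group means, and slide row as an added term for the row test; scripts were tested on simulated data.

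The 10 genes, the gene lists and the rules were chosen with earlier results of these data known. Named genes are all member probes, a set of pathway genes, and the 5 genes most like Calr and Hsp90ab1. MM and CC share replicate numbers 1 to 4, and same-numbered arrays lie in the same slide row. Their deviations from the group means correlated at 0.54, 0.15, 0.58 and 0.19, and an alternative fit took the numbers as pairing. Pairing and a shared slide row cannot be told apart in these correlations, so they do not show that the arrays are paired. Alternatives were other background corrections, centrings and filters, the scanner's and the authors' values, slide row as a block, single rows, and leaving out each array.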

Additional observations from a re-analysis of the deposited data

Results flagged for a closer look

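In 8 of 192 groups of 4 arrays, 1 array stood apart from the other 3 by Dixon's criterion, which chance alone meets in about 1 group of 20. MM replicate 3 was high for Canx, a dim probe. It stood at 7.44 in liver (others 6.93 to 6.996) and 0.80 in the log ratio (others 0.33 to 0.36). The same array was high for Hsp90ab1 probe A in the log ratio, at -0.89 (others -1.10 to -1.07). CC replicate 2 was low in liver for Hsp90ab1 probe B, at 10.41 (others 10.81 to 10.85), and for Hspa8 probe B, at 12.32 (others 13.01 to 13.14). M replicate 7 was low in liver for Hspa8 probe C, at 8.04 (others 8.27 to 8.29). In the reference channel, CC replicate 3 was high for Hspa5, at 13.33 (others 13.28 to 13.29), and C replicate 10 was high for Hsp90b1, at 11.59 (others 11.49 to 11.51).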

How the results depend on the processing

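The fostering comparisons gave 0 called probes under every alternative run that gives such a count, and leaving out each array in turn gave 0 throughout. The row count moved: in the log ratio it was 2830 with median centring and 0 with the scanner's own log ratio, against 5160; in liver it was 12 with the processed signals (added after seeing the data), against 5515; and in the reference it was 27 with the processed signals and 330 with no filter on dim probes, against 154. Leaving out each array gave 50 to 144 row calls in the reference, 4661 to 5268 in the log ratio and 5028 to 5637 in liver. Of the chaperone values that were called or exceeded the spread between replicates, 6 turned direction: Hsp90ab1 probe B, M minus C, log ratio, to 0.0246 with median centring; Hspa8 probe A, row 2 minus row 1, to 0.23 with the scanner's log ratio and to 0.21 in liver with the processed signals; Hsp90aa1 probe B, M minus C, liver, to 0.0698 in row 1 alone; and with the processed signals in the reference, Hspa8 probe B, M minus C, to -0.0213 and Hspa5, MM minus CC, to -0.0033. The cause was not tested. Smaller values crossed 0 more often: 35 of 96 slide differences, 87 of 128 fostering and interaction values and 15 of 48 row differences changed sign in at least 1 setting, those 6 included, so their directions are not settled. The slide differences of Calr kept their sign in every setting run. The replicate block on the CC and MM arrays gave -2.53 in the log ratio, -0.43 in liver and 1.98 in the reference for Calr, MM minus CC. Balanced pairs leave a difference of means the same by construction and the comparison has no test, so the block shows nothing about stability. No chaperone probe was saturated, so leaving out saturated spots changes nothing.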
